A study of Rattus norvegicus with 5 samples.

Results

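The Notch, Hes and Id regulators examined here are 9 genes: the receptors Notch1 and Notch2, the ligands Jag1 and Dll1, the transcriptional repressors Hes1 and Hes5, and the inhibitors Id1, Id2 and Id3. They were taken as every probe set whose only annotated gene symbol was one of these names, which gave 15 probe sets among the 7006 that carry exactly 1 symbol. A probe set is a group of short oligonucleotides on the array meant to read out a given transcript. Some can read more than 1 gene: 308 carried several symbols and could not be members. Total RNA of rat hippocampus, labelled P5, was measured on 5 single-colour arrays, 1 per sample. The control diet group had 2 arrays, the fetal alcohol group (fetal alcohol exposed, per the labels) had 2, and the group fed an isocaloric diet, a feeding control in which other calories replace those of alcohol, had 1. The labels give no strain, dose, sex or number of animals. They also leave unsaid whether a sample was 1 animal or a pool, so p-values measure only the spread between these arrays, which may be technical. The age label and the tissue are shared by all groups.

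Notch receptors sit in the cell membrane and are activated by Delta and Jagged ligands on a neighbouring cell. Cleavage then frees the receptor's intracellular part, which enters the nucleus, binds the factor RBPJ and switches on Hes genes, whose proteins repress proneural genes and keep neural stem and progenitor cells from differentiating. Id proteins contain a helix-loop-helix but no DNA-binding stretch, so they pair with basic helix-loop-helix factors and hold them off DNA; bone morphogenetic protein (BMP) signalling is a well known inducer of Id genes. In the hippocampus both systems are known from the dentate gyrus, where neurogenesis goes on after birth, and Id genes are also known from glia, blood vessels and choroid plexus.

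Because Hes1, Hes5 and Dll1 are the members whose upstream sequence held the core motif of RBPJ, their promoters are shown, together with that of Id3, the member with the largest difference between fetal alcohol and control diet. Each sequence is the 250 bases before the gene's start, 5′ to 3′ on the gene's strand, from RefSeq's GRCr8 assembly; all 9 genes matched an entry there. Capitals mark GTGGGAA or its reverse complement TTCCCAC.
Hes1, chr11:84213046-84213295, minus strand: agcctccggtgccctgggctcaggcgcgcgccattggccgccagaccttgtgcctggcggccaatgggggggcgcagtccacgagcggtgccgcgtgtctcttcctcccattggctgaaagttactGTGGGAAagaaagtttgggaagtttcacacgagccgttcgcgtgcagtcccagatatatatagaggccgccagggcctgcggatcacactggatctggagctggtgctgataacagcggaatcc
Hes5, chr5:170804327-170804576, plus strand: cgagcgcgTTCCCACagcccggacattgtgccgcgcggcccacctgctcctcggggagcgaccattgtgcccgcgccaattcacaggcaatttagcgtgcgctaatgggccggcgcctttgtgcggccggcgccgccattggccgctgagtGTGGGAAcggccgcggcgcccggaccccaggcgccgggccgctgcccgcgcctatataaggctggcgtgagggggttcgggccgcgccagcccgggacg
Dll1, chr1:64993275-64993524, minus strand: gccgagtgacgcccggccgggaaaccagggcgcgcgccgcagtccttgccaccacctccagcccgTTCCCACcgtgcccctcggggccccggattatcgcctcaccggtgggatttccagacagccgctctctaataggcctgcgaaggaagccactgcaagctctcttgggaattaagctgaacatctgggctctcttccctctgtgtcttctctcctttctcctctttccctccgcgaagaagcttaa
Id3, chr5:153656041-153656290, plus strand: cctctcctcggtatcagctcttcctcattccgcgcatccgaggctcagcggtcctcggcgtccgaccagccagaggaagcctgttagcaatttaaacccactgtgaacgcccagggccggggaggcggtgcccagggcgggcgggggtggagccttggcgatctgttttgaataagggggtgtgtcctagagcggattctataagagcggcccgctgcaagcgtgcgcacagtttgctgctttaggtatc

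The RBPJ core motif was searched on both strands. In Hes1 its match began 124 bases upstream of the gene's start, in Hes5 matches began 242 and 99 bases upstream, and in Dll1 the match began 185 bases upstream. The motif was thus present in 3 of the 9 member promoters, against 5.27% of 33469 rat promoters of the same length. The E box, CANNTG, to which basic helix-loop-helix dimers bind, was found in 5 of the 9 (Notch2, Dll1, Hes5, Id1 and Id2), against 65.5% of all promoters. The N box, CACNAG, bound by Hes proteins, was found in Notch1 and Hes1 only, against 37.2%. Of the SMAD motifs, GGCGCC lay in the Hes5 promoter, against 8.69% of all promoters, and GTCTAGAC in 0 of the 9, against 0.173%. In Notch1 some N box matches overlapped each other, and no RBPJ match overlapped a match of another motif. The Id3 window held none of the 5 motifs. These matches describe letters in a window and do not show binding.

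All values below are the deposited intensities on a linear scale. Log2 differences are between group means of log2(intensity + 10.6), which understates the change of dim probe sets. Adjusted p-values come from limma, which fits a linear model to each probe set. Its estimate of the spread is drawn in part from all tested probe sets. Benjamini-Hochberg adjustment was over the 5244 tested, with a threshold of 0.05. Of the 15 member probe sets 14 were bright enough to be tested, at least 1 for each of the 9 genes; the exception was the dimmer of the pair for Hes5. With 2 arrays against 2, an exact permutation test of 1 value cannot go below p = 0.333. Over all tested probe sets the median gap between the arrays of a group was 0.20 on the log2 scale for control diet and 0.30 for fetal alcohol. Of the marker genes of hippocampal excitatory neurons, 10 of 15 had a probe set, with a summed intensity of 6933 and 6464 in control diet, 6866 and 7110.1 in fetal alcohol and 6199 in the isocaloric sample; Slc17a7, a vesicular glutamate transporter of this list, lay under the offset of 10.6 on all 5 arrays.

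**Figure D1:**
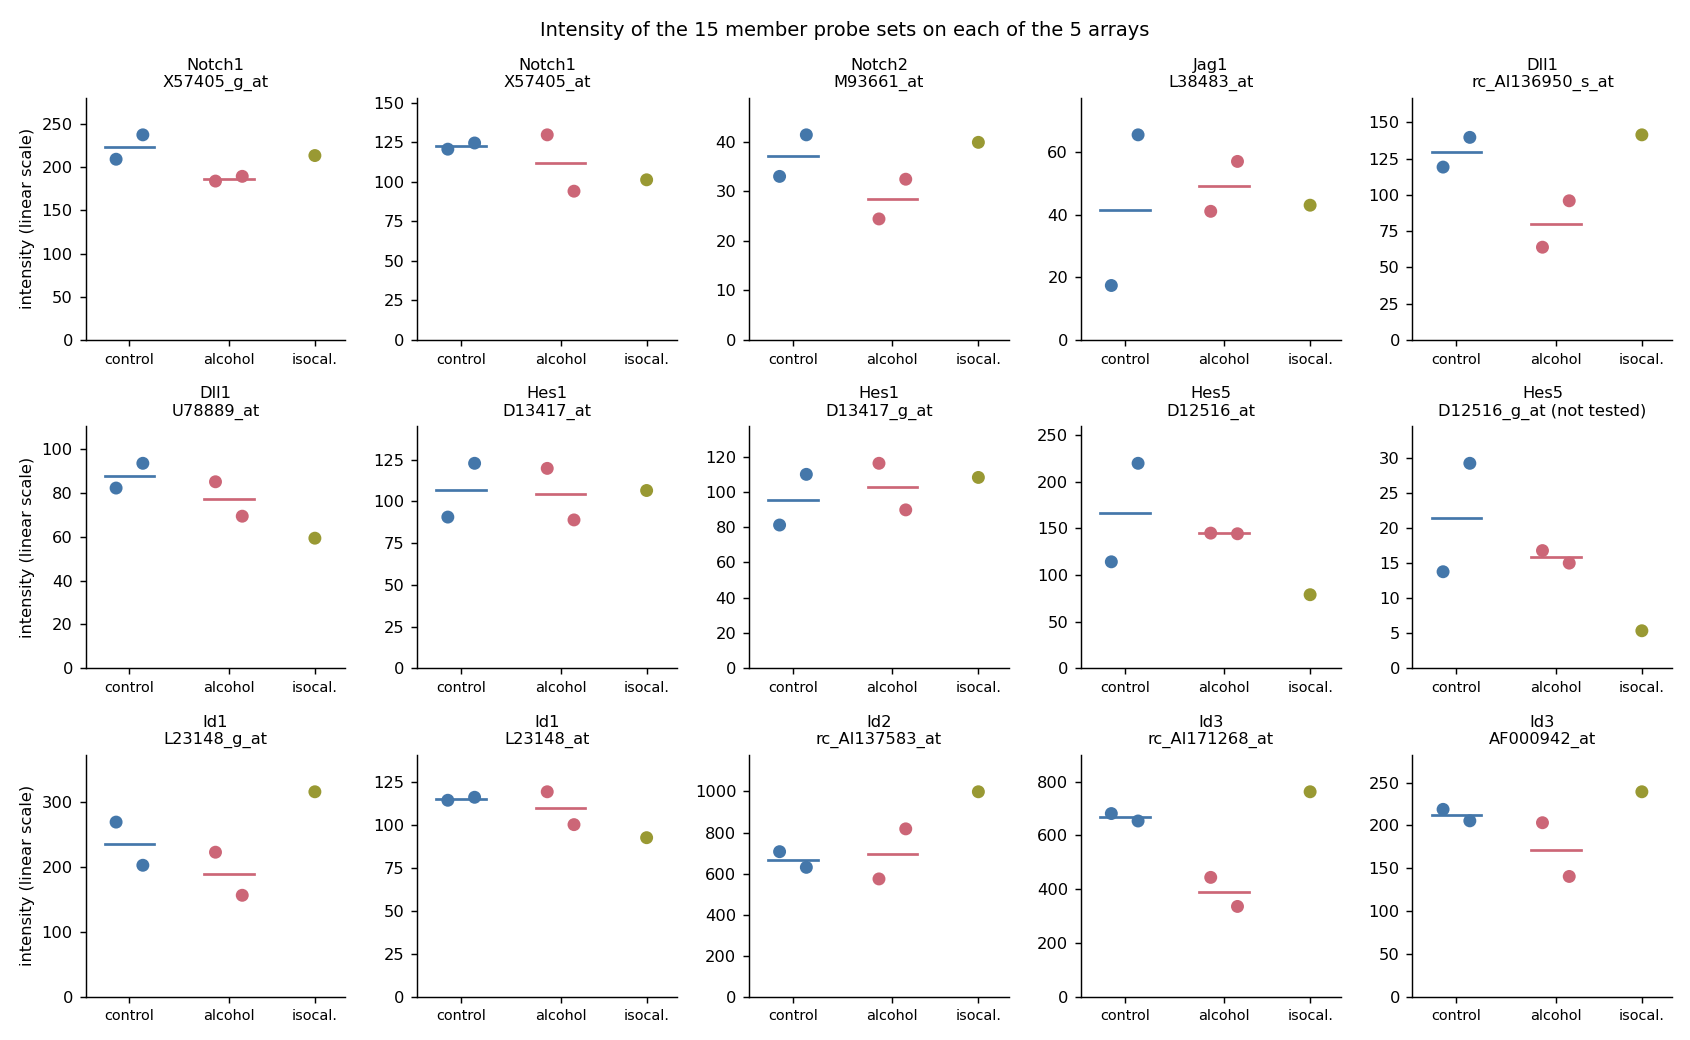
Intensity (linear scale, from 0) of the 15 member probe sets on the 2 control diet, 2 fetal alcohol and 1 isocaloric arrays; points are arrays and lines are means of 2 arrays. For Id3, both probe sets lie lowest on the fetal alcohol arrays and highest on the isocaloric array.

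Fetal alcohol was compared with control diet to ask how exposure before birth relates to hippocampal transcript levels. Id3 and Dll1 had the lowest fetal alcohol signals relative to control diet, and Notch1 and Notch2 were slightly lower, while Hes1 and Id2 lay close to control. No member passed the threshold in this comparison, as no probe set on the array did (0 of 5244, 0%). At an unadjusted limma p under 0.05 there were 2 of the 14 tested member probe sets, both lower (Id3 and Dll1), against 3.95% of all tested probe sets lower, 1.66% higher and 5.61% in either direction. Both lost that unadjusted limma call without control diet array 1 and without control diet array 2, and Dll1 also without fetal alcohol array 1. Over all 15, fetal alcohol and control diet arrays did not overlap for 5, each of them lower after alcohol, against 16.5% of all 8740 probe sets lower and 18.1% higher. The log2 difference was below 0 for 12 of the 15, against 47.8% of all probe sets, and the median was -0.17 against 0.01. Probe sets of 1 gene are meant to read RNA of the same gene, so these 15 are not independent.

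Notch1, a receptor of neural stem cells, was read by a pair of probe sets made from the same sequence record. The brighter, X57405_g_at, measured 209 and 238 in control diet, 184 and 189.6 in fetal alcohol and 214 in the isocaloric sample. Both fetal alcohol arrays thus lay below the other 3. The log2 difference from control diet was -0.24 ± 0.23 (SE), with a 95% interval from -0.77 to 0.28 (adjusted p = 0.965).

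The other Notch1 probe set, X57405_at, measured 121 and 124 in control diet, 129.6 and 94.0 in fetal alcohol and 101 in the isocaloric sample. Here the fetal alcohol arrays lay on either side of control diet, with a log2 difference of -0.14 ± 0.24 that became 0.08 without fetal alcohol array 2. Notch2, a second receptor of the family, gave dim signals of 33.0 and 41.4 in control diet, 24.4 and 32.5 in fetal alcohol and 39.9 in the isocaloric sample. Its groups did not overlap, though the higher fetal alcohol value lay just under the lower control diet value. The log2 difference was -0.29 ± 0.26, about as large as the gaps within the pairs (0.25 for control diet and 0.30 for fetal alcohol), with an interval from -0.88 to 0.29 (adjusted p = 0.965).

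Dll1, a Delta ligand expressed by cells that are becoming neurons, was read by probe sets from different sequence records. The brighter, rc_AI136950_s_at, measured 119 and 139.6 in control diet, 63.9 and 95.9 in fetal alcohol and 141 in the isocaloric sample. Both fetal alcohol arrays lay below the other 3, and fetal alcohol array 1 was the lowest. The log2 difference from control diet was -0.65 ± 0.26, larger than the gap within either pair (0.21 for control diet and 0.52 for fetal alcohol), with an interval from -1.24 to -0.06. Without fetal alcohol array 1 it was -0.39, below the full gap within fetal alcohol, and without array 2 it was -0.91. Only 3.55% of tested probe sets had a lower value. It did not pass (limma adjusted p = 0.820, 0.129 to 0.9997 over the alternatives).

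The second Dll1 probe set, U78889_at, did not show this separation. Probe sequences were not at hand, so whether both probe sets read Dll1 alone was not tested. It measured 82.1 and 93.4 in control diet, 85.0 and 69.3 in fetal alcohol and 59.3 in the isocaloric sample, so that the isocaloric array was the lowest of the 5. Its log2 difference between fetal alcohol and control diet was -0.17 ± 0.23 (interval -0.70 to 0.36). Jag1, a Jagged ligand, was dim and uneven, with 17.4 and 65.4 in control diet, 41.0 and 56.9 in fetal alcohol and 43.0 in the isocaloric sample. Control diet array 1 stood apart there: the log2 difference of 0.36 ± 0.43 became -0.36 without it and 1.08 without control diet array 2.

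Hes1, a repressor induced by Notch, was measured at nearly the same level in every group. D13417_at gave 90.7 and 123 in control diet, 119.8 and 88.9 in fetal alcohol and 107 in the isocaloric sample. D13417_g_at, from the same record, gave 81.2 and 109.9, 116 and 89.8, and 108. The arrays of each group spread more than the groups differed: the log2 differences were -0.03 ± 0.26 (interval -0.62 to 0.56) and 0.10 ± 0.25 (interval -0.48 to 0.68).

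Hes5, the other Notch-induced repressor and a marker of neural stem cells, differed widely between the control diet arrays themselves, by 0.88 on the log2 scale. D12516_at measured 114 and 219.7 in control diet, 145 and 144 in fetal alcohol and 78.9 in the isocaloric sample. The fetal alcohol arrays lay between the control diet arrays, and the isocaloric array was below all 4. The log2 difference between fetal alcohol and control diet was -0.13 ± 0.31 (interval -0.84 to 0.58), and 0.31 without control diet array 2. D12516_g_at, of the same record and too dim to be tested, had the same order of arrays, with 13.8 and 29.3, 16.8 and 15.02, and 5.36.

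Id3, an Id protein of progenitors, glia and vessels, had the largest difference among the members. The brighter probe set, rc_AI171268_at, measured 682 and 654 in control diet, 444 and 336 in fetal alcohol and 763 in the isocaloric sample. The fetal alcohol arrays were the lowest, the isocaloric array was the highest, and no group overlapped another. The log2 difference from control diet was -0.77 ± 0.24, against gaps of 0.06 within control diet and 0.39 within fetal alcohol, with an interval from -1.32 to -0.23. Only 2.15% of tested probe sets had a lower value. It did not pass after adjustment (limma adjusted p = 0.661, 0.124 to 0.9997 over the alternatives).

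The second Id3 probe set, AF000942_at, gave the same order with a smaller difference. It measured 219 and 205 in control diet, 203 and 140.4 in fetal alcohol and 239 in the isocaloric sample, which gave a difference of -0.31 ± 0.26 (log2) (interval -0.90 to 0.28). Most of it came from fetal alcohol array 2, without which it was -0.06. For the brighter Id3 probe set the difference was -0.97 without fetal alcohol array 1 and -0.58 without array 2, so its size also varied with the array left out while its sign did not.

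Id1, the Id gene most often used as a readout of BMP signalling, had probe sets of 1 record that differed from each other. L23148_g_at measured 269 and 203 in control diet, 223 and 157 in fetal alcohol and 316 in the isocaloric sample, an order in which fetal alcohol array 1 overlapped control diet. L23148_at measured 114 and 116, 119 and 100.04, and 92.5, with the isocaloric array the lowest. Their log2 differences between fetal alcohol and control diet were -0.31 ± 0.27 (interval -0.93 to 0.32) and -0.07 ± 0.23 (interval -0.59 to 0.45). At L23148_g_at the value was -0.066 without fetal alcohol array 2, -0.55 without fetal alcohol array 1, -0.11 without control diet array 1 and -0.50 without control diet array 2.

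Id2, an Id gene also found in differentiating neurons, had no consistent difference between fetal alcohol and control diet. Its probe set measured 707 and 630.4 in control diet, 574 and 818 in fetal alcohol and 998 in the isocaloric sample. The fetal alcohol arrays lay on both sides of control diet and the isocaloric array lay above all 4. The log2 difference was 0.04 ± 0.25 (interval -0.53 to 0.61), 0.29 without fetal alcohol array 1 and -0.21 without array 2.

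**Figure D2:**
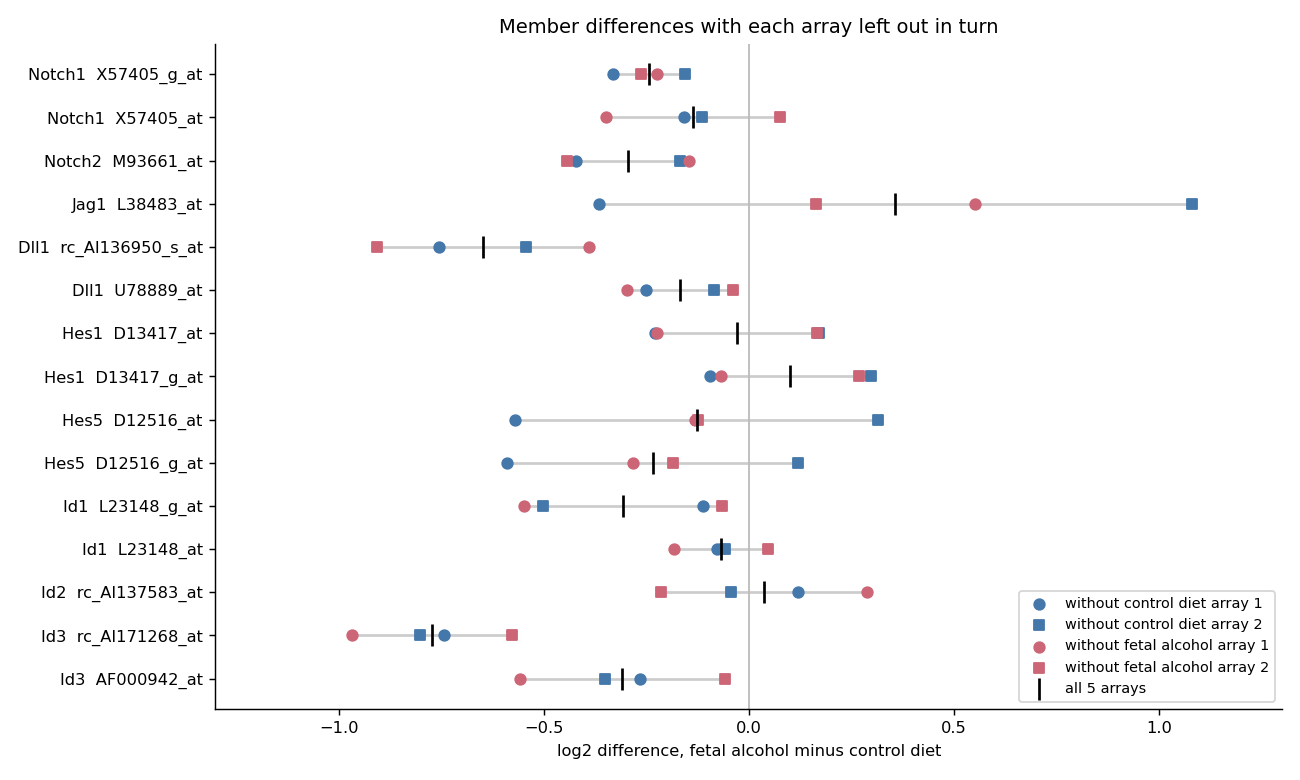
Log2 difference between fetal alcohol and control diet for the 15 member probe sets (black bar, all 5 arrays) and with each of 4 arrays left out (symbols). The brighter Dll1 and Id3 probe sets stay between -0.97 and -0.39, while Jag1 spans -0.36 to 1.08.

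Markers of other tissues and of cell types that a hippocampal sample can hold were read on the same arrays. The 9 of 15 choroid plexus markers with a probe set had a summed intensity of 7026 and 7182 in control diet. The sum was 2661 and 1211 in fetal alcohol and 7765 in the isocaloric sample. It was thus lowest on the fetal alcohol arrays and highest in the isocaloric sample, the order also seen for Id3 and the brighter Dll1 probe set. Ttr, the transthyretin gene, which made up most of this sum in control diet and the isocaloric sample but not in fetal alcohol, measured 5297 and 4886, 1004 and 69.2, and 5391. None of these markers lay under the offset on all arrays. Of the 7 tested, 6 had a negative difference between fetal alcohol and control diet, with a median of -1.004, and 4 had an unadjusted limma p under 0.05. The 15 of 16 markers of meninges and connective tissue summed to 6034 and 8901, 7119.8 and 3416, and 5638, with 15 of 15 differences negative and a median of -0.43. The 11 of 17 endothelial and mural markers summed to 1005 and 1265, 912 and 932, and 1087. Des among them lay under the offset on all arrays. Of the 8 tested, 4 had a negative difference, with a median of -0.06. Astrocyte and radial glia markers, 10 of 11, summed to 6263 and 6039, 5892 and 5689, and 6125. Of the 10 tested, 5 had a negative difference, with a median of -0.05. Inhibitory neuron markers had a negative difference in 4 of 9 tested, with a median of 0.01. For oligodendrocyte lineage markers it was 3 of 6, with a median of 0.10, and for excitatory neuron markers 3 of 8, with 0.04. The 7 of 10 microglia and macrophage markers summed to 459 and 667, 442 and 371, and 397; 3 of the 4 tested had a negative difference, with a median of -0.36, and Csf1r lay under the offset on all arrays. The 3 of 6 blood markers summed to 4348 and 4989, 4980.4 and 3591, and 4259, with 3 of 3 differences negative and a median of -0.23. The part of these cells and tissues in the Id3 and Dll1 differences was not tested, and in whole tissue fewer cells of a type cannot be told apart from less RNA per cell.

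Related genes of the same pathways were read from the same fit, at the brightest probe set of each gene. In every one of these lists 0 genes passed the limma threshold in this comparison. Counts without overlap stand beside 17.7% of tested probe sets lower and 16.8% higher, and medians beside 0.0049 for all tested probe sets. The lists were composed with earlier results of these data known.

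Among other Notch ligands and receptors, 6 of 9 had a probe set and all 6 were tested, 4 with a negative difference, and their median was -0.10. No gene of this list was without overlap. Jag2, a second Jagged ligand, had -0.17 ± 0.24, with -0.44, 0.06 and -0.0018 at its other probe sets. Dlk1, a Delta-like protein, had -0.18 ± 0.24, Egfl7, a secreted protein of endothelium, -0.25 ± 0.33, and the vascular receptor Notch4 0.08 ± 0.26. The other Egfl7 probe set, too dim to be tested, had 0.0088.

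Of the genes for Notch processing, modification and the nuclear complex, 9 of 32 had a probe set and 8 were tested, 4 in each direction, with a median of -0.02. Furin, the protease that cuts Notch receptors on their way to the membrane, was the only tested gene of this list without overlap. It measured 366 and 406 in control diet, 271 and 297 in fetal alcohol and 341 in the isocaloric sample. The difference was -0.43 ± 0.23 (log2) (limma adjusted p = 0.918), and the second Furin probe set gave -0.58. Adam17, too dim to be tested, also lay lower in fetal alcohol without overlap. Psen2, a catalytic subunit of gamma-secretase, had 0.37 ± 0.31, the deacetylase Hdac2 0.33 ± 0.27 and the ubiquitin ligase Nedd4 -0.21 ± 0.25. Rbpj itself, named for its role, had -0.14 ± 0.24.

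In the Hes and Hey family with its corepressors, 7 of 14 had a probe set and 6 were tested, 3 in each direction, with a median of 0.01. Tle5, a short member of the Groucho family of Hes corepressors, had 0.23 ± 0.22 at its brightest probe set. Its other probe sets had -0.34, 0.20 and 0.21. Tle1, a Groucho corepressor and the only gene of the list without overlap, had 0.11 ± 0.23. Bhlhe40 had -0.09 ± 0.23 and Tle4 -0.05 ± 0.23.

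The list of proneural, neuronal and other basic helix-loop-helix factors includes partners or targets that Hes and Id proteins restrain. Of its genes, 10 of 21 had a probe set and 4 were tested. Neurod2, a factor of maturing excitatory neurons, measured 185 and 150.4 in control diet, 83.8 and 110.1 in fetal alcohol and 88.0 in the isocaloric sample. Neurod1, a factor of dentate granule neurons, measured 241 and 251 in control diet, 109 and 220.5 in fetal alcohol and 126 in the isocaloric sample. For both genes the fetal alcohol arrays and the isocaloric sample lay below control diet. For Neurod1 most of the fetal alcohol difference came from array 1, since array 2 lay near control diet. The log2 differences between fetal alcohol and control diet were -0.73 ± 0.25 for Neurod2 (adjusted p = 0.725) and -0.63 ± 0.32 for Neurod1 (adjusted p = 0.911), with -0.65 at the second Neurod1 probe set. Tcf4, an E protein bound by Id proteins, had -0.65 ± 0.41, which came from fetal alcohol array 1 with 78.0 against 222 on array 2. Tcf3, another E protein, had 0.11 ± 0.29, with -0.23 at its other probe set, which was too dim to be tested. The median of these 4 was -0.64, between the values of Neurod1 and Tcf4, so it rests largely on fetal alcohol array 1. The 6 dim members of the list with a probe set were not tested: Ascl2, Myod1, Myog, Neurog1, Neurog3 and Tcf12.

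Of the BMP and transforming growth factor genes that act upstream of Id genes, 26 of 33 had a probe set and 12 were tested, 6 in each direction, with a median of -0.03. Without overlap, among those tested, were 5 lower and 2 higher. The 2 higher were Smad1 with 0.22 ± 0.23 and Acvrl1 with 0.11 ± 0.22. The list also holds antagonists of BMP signalling, among them Nog, 1 of the 5 lower, with -0.16 ± 0.23. Bmp6, a ligand, measured 209.7 and 201 in control diet, 154 and 133 in fetal alcohol and 158 in the isocaloric sample, which gave a difference of -0.49 ± 0.23 (log2) (adjusted p = 0.909). Bmp7, a second ligand, had -0.60 ± 0.29, and the receptors Acvr1 and Acvr2b had -0.47 ± 0.26 and -0.23 ± 0.23.

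Of the neural progenitor and cycling cell genes, 16 of 25 had a probe set and 14 were tested, 7 in each direction, with a median of -0.0030. Without overlap were 3 lower and 3 higher. Cdkn1a, an inhibitor of the cell cycle, had -0.71 ± 0.28 and Nnat, neuronatin, -0.68 ± 0.19, while the mitotic kinase Cdk1 had 0.55 ± 0.23. Pcna, a replication clamp, had 0.50 ± 0.28 at its brightest probe set and -0.20 at the other.

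**Figure D3:**
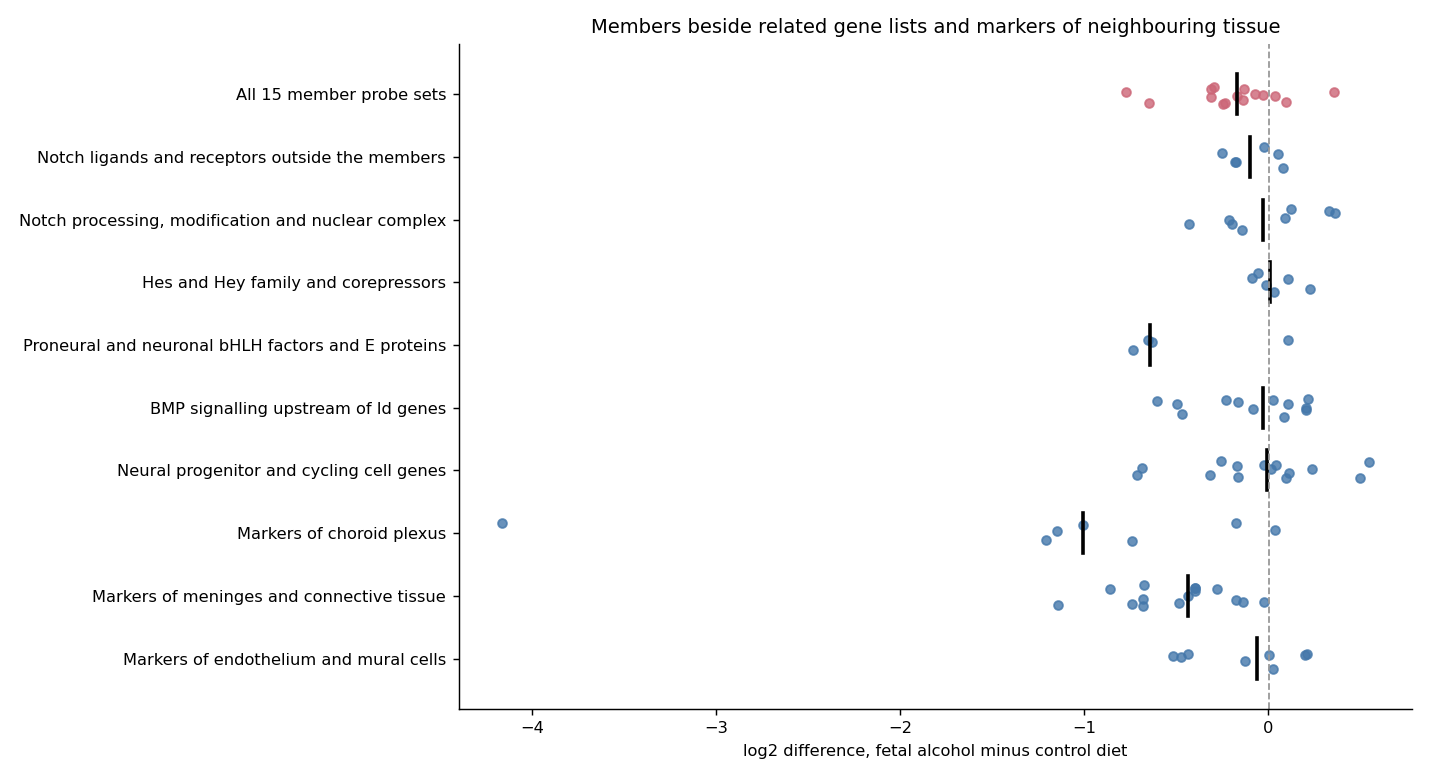
Log2 difference between fetal alcohol and control diet for all 15 member probe sets (red) and for tested genes of related lists (blue). Blue also marks tested markers of choroid plexus, meninges and endothelium, the only marker lists drawn. Each point is 1 probe set, black bars are medians and the dashed line is the median of all tested probe sets. Medians are -0.17 for the members, -0.64 for the 4 proneural and E protein genes and -1.004 for choroid plexus markers.

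Fetal alcohol was also compared with the isocaloric diet, the feeding control, which rests on 1 array without a replicate. Id3, Dll1, Id1 and Id2 had their lower values on the fetal alcohol arrays at their brightest probe sets, and Hes5 had its higher value there. No member passed (0 of 14 tested, as 0 of 5244, 0%, on the whole array). At an unadjusted limma p under 0.05 there were 2 member probe sets, both lower, against 1.54% of tested probe sets lower, 2.67% higher and 4.21% in either direction. Dll1 lost that unadjusted limma call without control diet array 1 or 2, without fetal alcohol array 1 and with no filter on dim probe sets, while Id3 kept it in every alternative run. Over all 15, the isocaloric array lay outside the fetal alcohol pair for 11: fetal alcohol was lower in 7, against 26.5% of all probe sets, and higher in 4, against 35.9%. The median difference was -0.07, against 0.03 for all probe sets.

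The Id3 difference was -0.96 ± 0.29 at the brighter probe set (interval -1.63 to -0.29, limma adjusted p = 0.998, range over alternatives 0.202 to 0.999) and -0.48 ± 0.31 at the other, where it was -0.73 without fetal alcohol array 1 and -0.23 without array 2. Dll1 had -0.77 ± 0.32 at rc_AI136950_s_at and 0.32 ± 0.28 at U78889_at, opposite in sign. The Id1 probe sets also differed in sign, with -0.73 ± 0.33 at L23148_g_at and 0.22 ± 0.28 at L23148_at. Id2 had -0.54 ± 0.30, and both fetal alcohol arrays lay below the isocaloric array; without fetal alcohol array 1 it was -0.28 and without array 2 -0.79. Hes5 had 0.79 ± 0.38 at D12516_at (interval -0.08 to 1.66) and 0.73 at the untested probe set. Notch2 had -0.38 ± 0.31, Notch1 -0.18 ± 0.28 and 0.12 ± 0.30, Hes1 -0.04 ± 0.32 and -0.07 ± 0.31, and Jag1 0.14 ± 0.53. Among related genes, Dll3, a member of the Delta family, had 0.83 ± 0.29 and was chosen after its values were seen. It measured 202 and 228 in control diet, 248 and 201 in fetal alcohol and 121 in the isocaloric sample. Against control diet its difference was 0.06 for fetal alcohol and -0.78 for the isocaloric sample, so the unreplicated array set it apart.

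The isocaloric diet was compared with control diet to describe the feeding control itself, again on 1 array. Hes5 had the largest difference among the members and was lowest on the isocaloric array, while Id2 was highest there. No member passed (0 of 14, as 0 of 5244, 0%, on the whole array), and 1 member probe set, Hes5, had an unadjusted limma p under 0.05, against 5.43% of tested probe sets lower, 1.37% higher and 6.81% in either direction. Hes5 lost that unadjusted limma call without control diet array 2 and with no filter on dim probe sets. The isocaloric array lay outside the control diet pair for 10 of the 15, above it in 5 and below it in 5, against 35% and 38.1% of all probe sets. The median difference was 0.08, against -0.01 for all probe sets.

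Hes5 had -0.92 ± 0.38 at D12516_at (interval -1.79 to -0.05, limma adjusted p = 0.683, range over alternatives 0.288 to 0.99997) and -0.97 at the dim probe set. The difference was -0.48 without control diet array 2 and -1.36 without array 1, since the control diet arrays stood far apart. Id2 had 0.57 ± 0.30, and Id1 0.42 ± 0.33 and -0.29 ± 0.28 at its 2 probe sets. Id3 had 0.19 ± 0.29 and 0.17 ± 0.31, and its values on the isocaloric array were above both control diet arrays. Dll1 had 0.12 ± 0.32 at rc_AI136950_s_at and -0.49 ± 0.28 at U78889_at. Among related genes, Neurod2 had -0.85 ± 0.30 and Neurod1 -0.91 ± 0.40, close to their fetal alcohol differences, with which they share the control arrays.

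**Figure D4:**
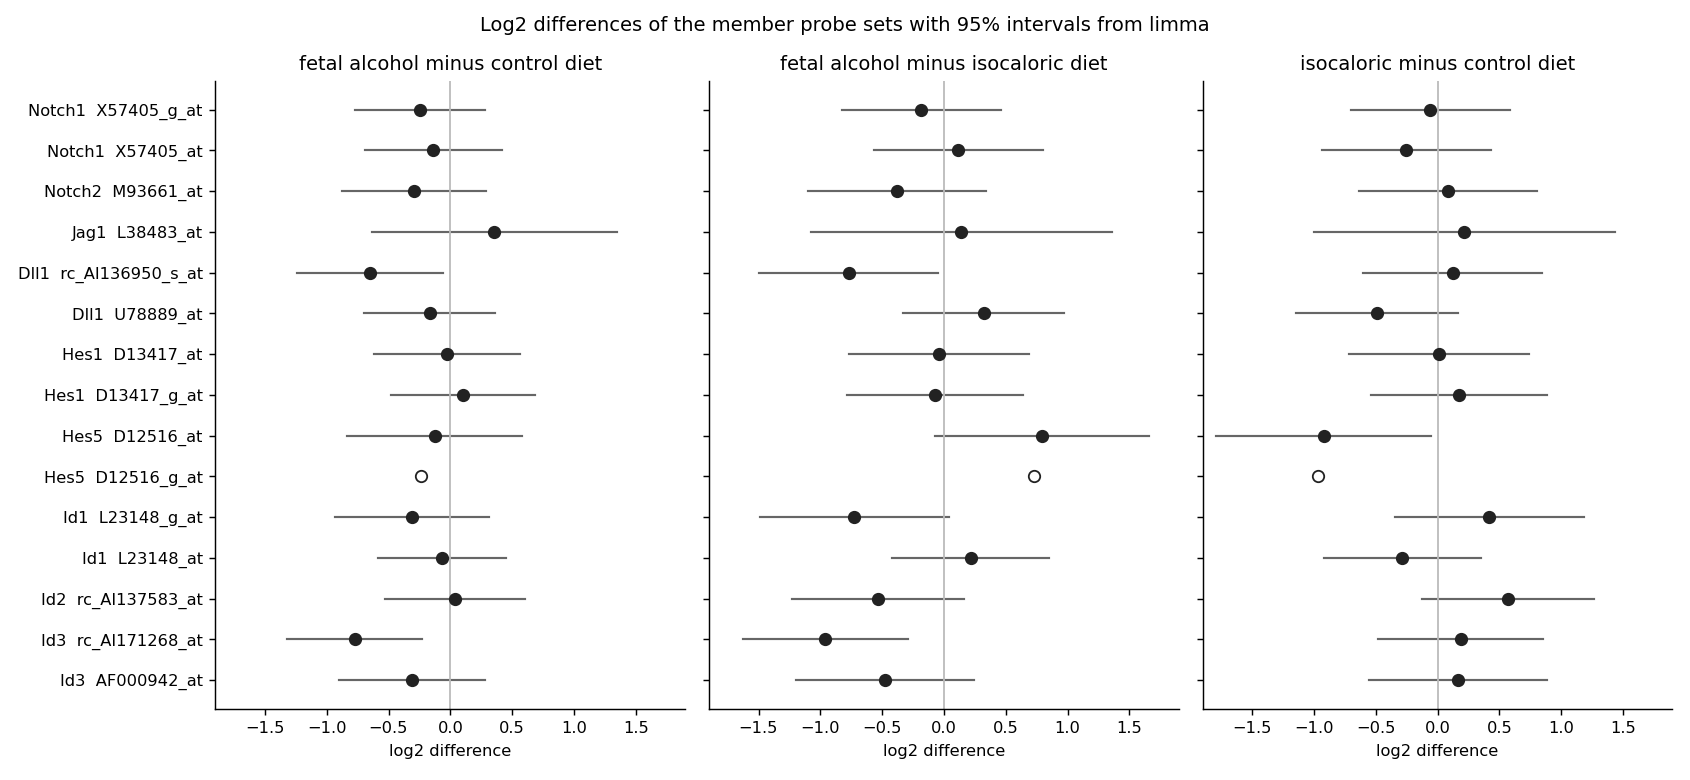
Log2 differences (points) with 95% intervals from limma (lines) for the 15 member probe sets in the 3 comparisons; the open point, for Hes5, was not tested. Intervals that leave out 0 are those of the brighter Dll1 and Id3 probe sets in both fetal alcohol comparisons and of Hes5 between the diets, none of which passed after adjustment.

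The tested member probe set with the widest range over the 5 arrays was that of Jag1, 1.44 on the log2 scale. Of 4378 other named probe sets tested, those most like it by root mean square difference of centred log2 values over the 5 arrays were Supt5h (0.17), Ackr2 (0.19), Mpp2 (0.21), Plcb1 (0.22) and Scaf4 (0.22), against a median of 0.55. All 5 had their lowest value on control diet array 1, as Jag1 did. They were chosen by likeness over these same arrays, so this is no separate result.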

How the data were processed

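Each array's deposited intensity values, linear and 1 per probe set, were the starting point; which software made or scaled them is not given in the sources used here. Their 2% trimmed means were 150.19 to 150.22 on the 5 arrays, so they were used as deposited. Of 8799 probe sets, 59 controls were left out. The other 8740 became log2(intensity + 10.6), the offset being their 20th percentile, and those with a mean under the 40th percentile were not tested, leaving 5244. Symbols came from the platform annotation; 6985 of the 7006 single symbols were looked up by gene identifier. Group means were fitted over all 5 arrays with lmFit and eBayes in limma 3.58.1 (R 4.3.3), with an intensity trend and 2-sided tests; the isocaloric array was assumed to vary like the others. The fit was tested on simulated arrays. Depth has no meaning for arrays, whose number limits the precision. Neither detection calls nor scan dates entered. Named were all member probe sets and up to 4 genes per list with the largest difference between fetal alcohol and control diet. Up to 5 genes most like the widest-ranging member were named too. Rbpj, Dll3, Adam17, Nog, Smad1, Acvrl1 and the untested genes of the proneural list were added. Members and lists were chosen with earlier results of these data known. Alternatives covered normalization, offset, filter, variance trend, arrays left out and pairing.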

Additional observations from a re-analysis of the deposited data

How the results depend on the processing

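No member probe set passed under any alternative run. The count of all probe sets past the threshold for fetal alcohol against control diet, 0 in limma with 294 at an unadjusted p under 0.05, became 1 under quantile normalization, 9 with equal medians and 1 with the offset at the 40th percentile, and ran from 0 to 25 when 1 array was left out (17 without fetal alcohol array 1, 25 without array 2). For fetal alcohol against isocaloric diet (0, with 221 unadjusted) it became 3 under quantile normalization, 3 with equal medians and 0 to 12 with 1 array left out (10 and 12 without fetal alcohol array 1 and 2). Between the diets (0, with 357 unadjusted) it was 0 to 13 (11 and 13). The labels' replicate numbers were not used as pairs, because no source used here states a pairing. They gave 1 correlation of deviations, -0.113. For fetal alcohol against control diet, a replicate block over the 4 arrays gave 8, and crossed numbers, chosen after seeing the data, gave 21. With equal medians Hes1 D13417_at changed sign to 0.013. With 1 array left out, the fetal alcohol against control diet difference ran from -0.35 to 0.075 for Notch1 X57405_at, -0.36 to 1.08 for Jag1, -0.23 to 0.17 and -0.095 to 0.30 for Hes1 D13417_at and D13417_g_at, -0.57 to 0.31 for Hes5 D12516_at, -0.18 to 0.046 for Id1 L23148_at and -0.21 to 0.29 for Id2. Against isocaloric diet it ran from -0.096 to 0.33 for Notch1 X57405_at, -0.054 to 0.33 for Jag1, and -0.24 to 0.15 and -0.24 to 0.094 for Hes1. Between the diets it ran from -0.15 to 0.028 for Notch1 X57405_g_at, -0.043 to 0.21 for Notch2, -0.50 to 0.94 for Jag1, and -0.19 to 0.21 and -0.021 to 0.37 for Hes1. No other difference of a tested member changed sign in any alternative. With 1 array left out, fetal alcohol against control diet also ran from -0.44 to -0.15 for Notch2, -0.91 to -0.39 and -0.30 to -0.039 for Dll1 rc_AI136950_s_at and U78889_at, -0.55 to -0.066 for Id1 L23148_g_at and -0.56 to -0.058 for Id3 AF000942_at. Against isocaloric diet the range was -0.79 to -0.28 for Id2 and -0.73 to -0.23 for Id3 AF000942_at. Dim signals limit Notch2, Jag1 and the second Hes5 probe set.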
